A study of Homo sapiens with 17 samples.

Results

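MALAT1, NEAT1, RNR1 and RNR2 are noncoding RNAs that rank among the abundant rows of a deposited expression table of 786-O cells. They were taken by symbol, and all 4 of the 27315 genes in the table were found and lay above the filter on low values, which 12484 genes passed. They were selected on measured values, namely their abundance and their differences between libraries, so their levels and the spread between libraries are described here without a test. 786-O cells derive from a clear cell renal carcinoma and have no working VHL, a ubiquitin ligase subunit through which HIF alpha proteins are degraded. All cells received a lentiviral CRISPR vector, packaged in 293T cells, with Cas9 and 1 guide RNA, followed by antibiotic selection. In the USP37 experiment the guides were USP37 sg9 (3 libraries) and USP37 sg3 (3), against the scrambled guide USP37 sgscr (2, numbered 2 and 3). In the HIF2a experiment they were HIF2a sg6 (3) and HIF2a sg4 (3), against separate scrambled-guide libraries, HIF2a sgscr (3). The sample titles do not say whether both controls carry the same scrambled guide. USP37 is a deubiquitinase and HIF2a, gene symbol EPAS1, is a hypoxia-inducible transcription factor that VHL loss stabilises. By its title, the study concerns USP37 as a deubiquitinase of HIF2a in kidney cancer. The labels do not say whether the 17 libraries came from separate cultures or whether infected cells were cloned, so the p-values cover the spread among these libraries only, and that spread may be technical.

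MALAT1 is a long nuclear RNA of nuclear speckles, the stores of splicing factors. NEAT1 is made from the neighbouring gene on chromosome 11 and is the scaffold of paraspeckles. A short NEAT1 form ends in a normal poly(A) tail, while MALAT1 and the long NEAT1 form have no such tail: RNase P cuts their 3′ ends, and a genome-encoded A-rich tract folds with U-rich motifs into a triple helix that protects the end. NEAT1 is a reported target of HIF2A in hypoxia and of p53. RNR1 and RNR2 are the 12S and 16S ribosomal RNAs of the mitochondrial ribosome, copied from the heavy strand of mitochondrial DNA and given only short A tails. The libraries were made from polyadenylated RNA, per the labels.

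The 3′ ends are shown because they are where these RNAs differ from ordinary polyadenylated mRNAs. Sequences are from GENCODE 29 transcripts on GRCh38, plus strand, 5′ to 3′; capitals in the nuclear RNAs mark the U-rich motifs TTTCTTTT and TTTTGCTTTT and the A-rich tract, taken as the A run with the GC and the 4 A that follow it. The MALAT1 window lies at chr11:65505989-65506120 in the single exon of the transcript, the NEAT1 window at chr11:65445421-65445540 at the end of the long form, and the mitochondrial windows at chrM:1522-1601 and chrM:3150-3229.
MALAT1: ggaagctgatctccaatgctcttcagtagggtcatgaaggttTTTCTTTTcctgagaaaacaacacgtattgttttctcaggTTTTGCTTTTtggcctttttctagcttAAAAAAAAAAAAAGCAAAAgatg
NEAT1: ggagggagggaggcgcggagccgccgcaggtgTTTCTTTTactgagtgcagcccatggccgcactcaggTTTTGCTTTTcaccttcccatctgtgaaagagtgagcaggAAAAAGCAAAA
RNR1: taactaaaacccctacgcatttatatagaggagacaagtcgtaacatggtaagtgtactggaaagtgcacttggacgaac
RNR2: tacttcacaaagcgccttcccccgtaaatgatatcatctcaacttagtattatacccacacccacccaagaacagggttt
MALAT1, 8708 bases long in this annotation, carried a run of 13 A, and the 22743 bases of long NEAT1 a run of 22 A outside the window. The longest run was 5 A in the 3441 bases of short NEAT1, 6 A in the 954 bases of RNR1 and 7 A in the 1559 bases of RNR2. Of 206694 annotated transcripts searched on their own strand, 6.74% held a run of 10 or more A, 1.11% held TTTTGCTTTT and 0.478% held both motifs. The table does not separate the NEAT1 forms.

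Values are on the log2-like scale of the deposited table, variance-stabilised and batch-corrected by the authors. They are not per length, so a difference between genes is used only to compare libraries. The depth per library is unknown. As a check on the labels, EPAS1 fell by 1.97 (SE 0.10, limma adjusted p = 2.21e-12) with the HIF2a guides and USP37 fell by 1.00 (SE 0.14, limma adjusted p = 1.22e-05) with the USP37 guides. Each target also fell with the other experiment's guides, EPAS1 by 0.72 (SE 0.12, limma adjusted p = 6.6e-05) with the USP37 guides and USP37 by 0.44 (SE 0.12, limma adjusted p = 0.00903) with the HIF2a guides. Renal line markers such as PAX8 and VIM were high, and 13 of 14 passed the filter. For 293T cells 5 of 20 markers passed, with means over libraries of 11.14 for NEFL, 10.03 for IGF2BP3, 9.17 for PRAME, 8.15 for ZIC2 and 6.98 for ZIC5, and the other 15, LIN28B among them, did not pass. For leukocytes 2 of 12 passed (CD68 and LCP1), with PTPRC near the floor of 5.14. The summed 293T marker values ran over 123.5 to 127.4 in the USP37 experiment and 123.9 to 125.3 in the HIF2a experiment, and the leukocyte sums over 72.9 to 78.1 and 69.8 to 73.9 in the same order; their part in the results was not tested.

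MALAT1 was higher in most USP37-experiment libraries, but 1 library broke the pattern. Its values in libraries 1, 2 and 3 were 12.97, 13.37 and 10.10 with USP37 sg9 and 12.96, 12.77 and 13.38 with USP37 sg3, against 12.16 and 12.75 in libraries 2 and 3 of USP37 sgscr. In the HIF2a experiment they were 10.74, 9.73 and 11.65 with HIF2a sg6 and 11.28, 11.85 and 11.59 with HIF2a sg4, against 11.27, 11.17 and 11.59 with HIF2a sgscr. Library 3 of USP37 sg9 fell below every library of HIF2a sg4 and HIF2a sgscr, and the experiments overlapped only through it. The sg9 mean of 12.15 ± 1.78 (SD, n = 3) therefore describes none of its libraries. Among the 6 group means only the step between USP37 sg3 and USP37 sgscr separated all libraries of neighbouring groups. That step was narrow, with a lowest sg3 value of 12.77 and a highest sgscr value of 12.75. The share of all genes with such a step was not counted. The MALAT1 change with USP37 sg3 was called in 0 of 13 alternatives. MALAT1 ranked 163 to 3294 of all genes in USP37-experiment libraries and 761 to 4138 in HIF2a-experiment libraries.

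NEAT1 ran the other way. It stood at 11.13, 11.57 and 10.79 with USP37 sg9 and 10.45, 10.75 and 10.73 with USP37 sg3, against 10.86 and 10.78 in libraries 2 and 3 of USP37 sgscr. With HIF2a sg6 it was 12.00, 11.64 and 12.56 and with HIF2a sg4 12.47, 13.45 and 12.79, against 12.30, 11.72 and 12.35 with HIF2a sgscr. All 8 libraries of the USP37 experiment lay below all 9 of the HIF2a experiment, with no overlap. HIF2a sg4 had the highest mean, 12.90 ± 0.50 (SD, n = 3), and each of its libraries exceeded each control library. The lowest of them was 12.47 and the highest HIF2a sgscr library 12.35. The share of all genes that separated these groups was not counted. The rank of NEAT1 was 963 to 2514 in the USP37 experiment and 135 to 913 in the HIF2a experiment.

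RNR1, the small mitochondrial rRNA, showed the widest distance between the experiments of the 4 genes. It was 16.28, 16.18 and 14.42 with USP37 sg9 and 16.16, 15.71 and 16.34 with USP37 sg3, against 14.77 and 15.38 in libraries 2 and 3 of USP37 sgscr. It was 13.38, 13.099 and 14.00 with HIF2a sg6 and 13.45, 13.63 and 13.71 with HIF2a sg4, against 12.92, 13.25 and 12.79 with HIF2a sgscr. Every library of the USP37 experiment exceeded every library of the HIF2a experiment. It ranked 7 to 56 in the first and 69 to 295 in the second.

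RNR2, the large mitochondrial rRNA, ranked 2 to 5 in the USP37 experiment and 2 to 11 in the HIF2a experiment. It was 17.20, 16.96 and 16.35 with USP37 sg9 and 17.21, 16.89 and 17.13 with USP37 sg3, against 16.84 and 17.04 in libraries 2 and 3 of USP37 sgscr. With HIF2a sg6 it was 16.82, 16.39 and 17.65 and with HIF2a sg4 16.53, 16.83 and 16.60, against 15.90, 16.49 and 15.63 with HIF2a sgscr. The experiments overlapped, and the lowest values were those of libraries 1 and 3 of HIF2a sgscr; its library 2 lay above library 3 of USP37 sg9 and library 2 of HIF2a sg6. The RNR1 and RNR2 rows are the mitochondrial genes by symbol; the 10 nuclear MTRNR2L rows, which carry copies of RNR2 sequence, reached at most 5.88. No other mitochondrially encoded RNA was analysed here.

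**Figure D1:**
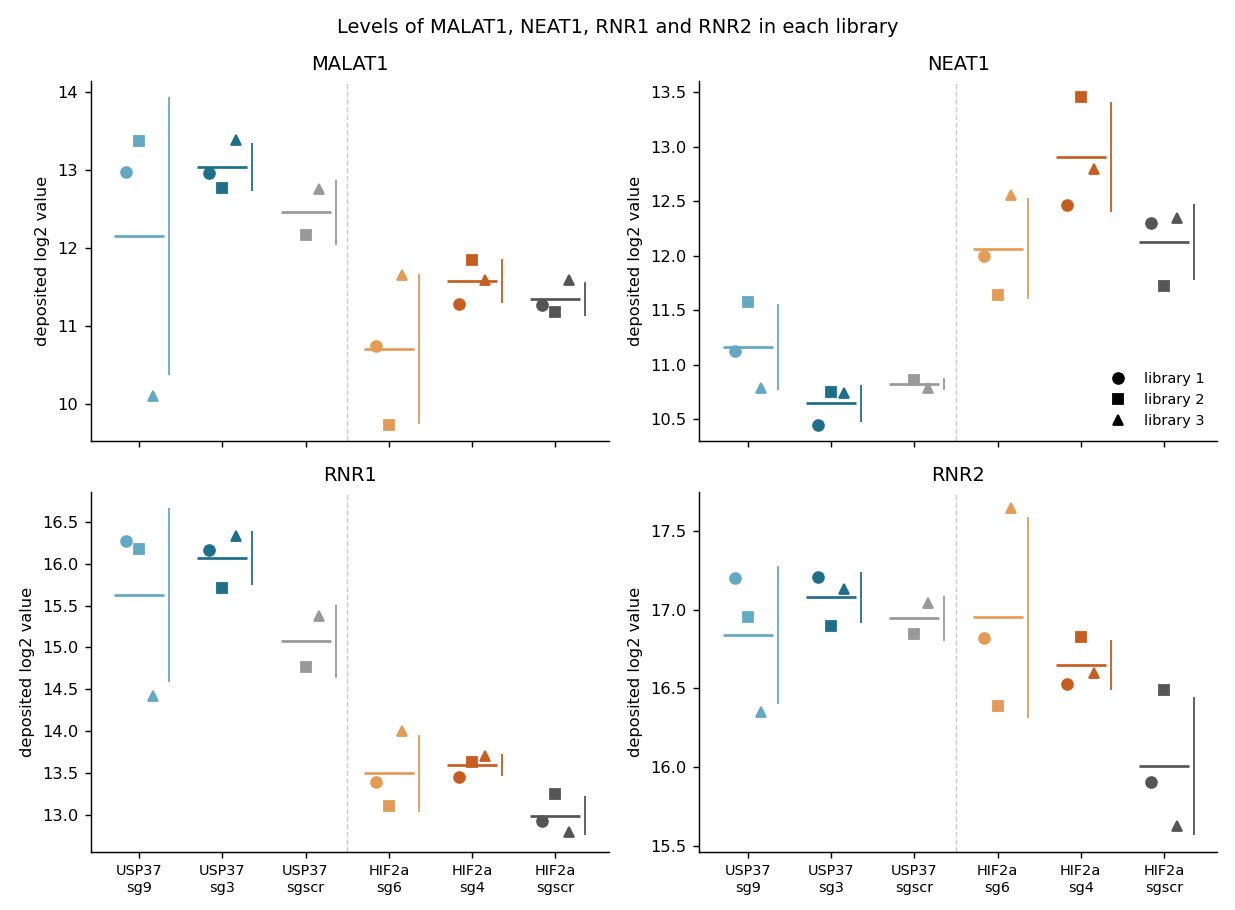
Deposited log2 value (vertical axes) of each RNA in each library, by group; circles, squares and triangles are libraries 1, 2 and 3, horizontal lines are group means and vertical lines are ± 1 SD (n = 3, and n = 2 for USP37 sgscr). NEAT1 is lower and RNR1 higher in all 8 libraries left of the dashed line, and library 3 of USP37 sg9 is the lowest of its experiment for MALAT1 and RNR1.

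Between the experiments, then, 2 of the 4 RNAs did not overlap: RNR1 was higher and NEAT1 lower in the USP37 experiment. The same held for 17.4% of all tested genes, 8.31% higher and 9.04% lower. The scrambled-guide controls alone already differed: USP37 sgscr minus HIF2a sgscr was 2.08 for RNR1 (SE 0.36), 0.94 for RNR2 (SE 0.28), 1.11 for MALAT1 (SE 0.60) and -1.30 for NEAT1 (SE 0.26). Of all tested genes 40.5% differed between these controls at an adjusted p under 0.05. Control guide and experiment cannot be told apart, so levels of the 4 RNAs set side by side across experiments are descriptions without a test. Guide effects are taken against the control of their own experiment.

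The balance between the RNAs within a library also differed between the experiments. In part this restates RNR1 and NEAT1, each of which did not overlap between the experiments, as held for 17.4% of all tested genes. The share of other gene pairs with such a separation was not counted. RNR2 minus RNR1 was 0.77 to 2.08 in the 8 libraries of the USP37 experiment and 2.84 to 3.65 in the 9 of the HIF2a experiment, with no overlap. It was 1.21 ± 0.63 with USP37 sg9 and 1.01 ± 0.20 with USP37 sg3 (SD, n = 3 each), against 1.87 ± 0.29 with USP37 sgscr (SD, n = 2). In the HIF2a experiment it was 3.46 ± 0.18 with HIF2a sg6 and 3.05 ± 0.15 with HIF2a sg4, against 3.02 ± 0.20 with HIF2a sgscr (SD, n = 3 each). Each USP37-guide library except library 3 of USP37 sg9 had a narrower gap than both USP37 sgscr libraries.

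NEAT1 minus MALAT1 was -2.65 to 0.69 in the USP37 experiment and 0.55 to 1.91 in the HIF2a experiment. MALAT1 had the higher value in 7 of the 8 USP37-experiment libraries, and NEAT1 in library 3 of USP37 sg9 and in all 9 HIF2a-experiment libraries.

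**Figure D2:**
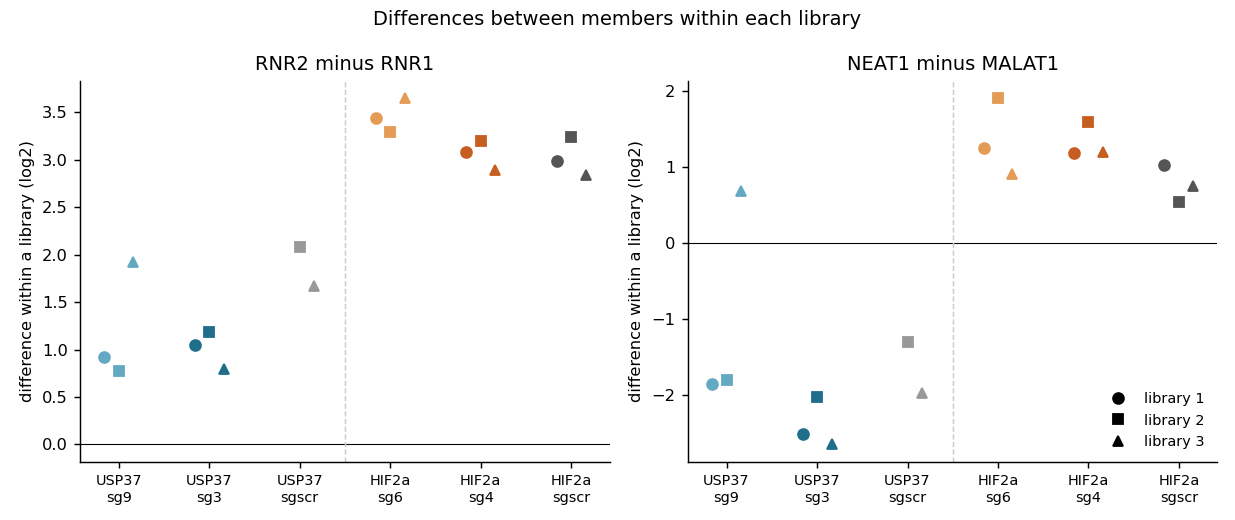
Difference of log2 values between members within each library (vertical axes), RNR2 minus RNR1 on the left and NEAT1 minus MALAT1 on the right, by group, with symbols for library number. The RNR2 minus RNR1 gap does not exceed 2.08 in the USP37 experiment and is at least 2.84 in the HIF2a experiment; library 3 of USP37 sg9 is the only one of its experiment with NEAT1 above MALAT1.

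All 4 RNAs varied more between libraries of a group than most genes did. The pooled within-group SD was 0.896 for MALAT1, 0.535 for RNR1, 0.394 for RNR2 and 0.375 for NEAT1, against a median of 0.146 over the 12484 tested genes. In order from the largest SD they took places 5, 8, 27 and 33. Libraries of the same number are tied, since the deposited values have equal means over each number. For MALAT1 the deviation from the group mean was -2.05 in library 3 of USP37 sg9 and 0.02 to 0.94 in the others numbered 3. The part of the tie in these spreads was not tested. In library 3 of USP37 sg9, the difference from the mean of the other 2 sg9 libraries was -3.07 for MALAT1, -1.80 for RNR1, -0.73 for RNR2 and -0.56 for NEAT1.

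Only 11 tested genes were more than 1 log2 unit lower in that library, and 0 were higher by as much. Besides MALAT1 and RNR1 these were the nuclear rRNA rows RNA45S4, RNA28S5, RNA45S5 and RNA28S4 (differences of -2.90, -2.87, -2.87 and -2.86), TALAM1, the antisense RNA of MALAT1 (-2.74), and RMRP, the RNA of RNase MRP (-2.58). The imprinted antisense RNA KCNQ1OT1 (-1.45) and the histone mRNAs HIST1H1E (-1.34) and HIST2H2BE (-1.31) completed them. The rRNA rows share sequence and may split the same reads. The kit does not mark strand, so TALAM1 and MALAT1 reads cannot be told apart. RNase MRP RNA, rRNAs and replication-dependent histone mRNAs normally lack a poly(A) tail, which is background and was not tested here.

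HIF2a sg6 held the other wide pair. Its library 2 differed from the mean of its group's other libraries by -1.47 for MALAT1, -0.64 for NEAT1, -0.59 for RNR1 and -0.85 for RNR2, and its library 3 was above them by 1.41, 0.74, 0.76 and 1.04 for the same genes. Library 2 had 23 tested genes lower and 1 higher by more than 1 log2 unit, and library 3 had 0 lower and 20 higher. Against their groups' other libraries, NEAT1 differed by 0.82 in library 2 of HIF2a sg4 and by -0.60 in library 2 of HIF2a sgscr. In HIF2a sgscr, RNR2 moved against NEAT1, 0.72 higher in library 2.

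**Figure D3:**
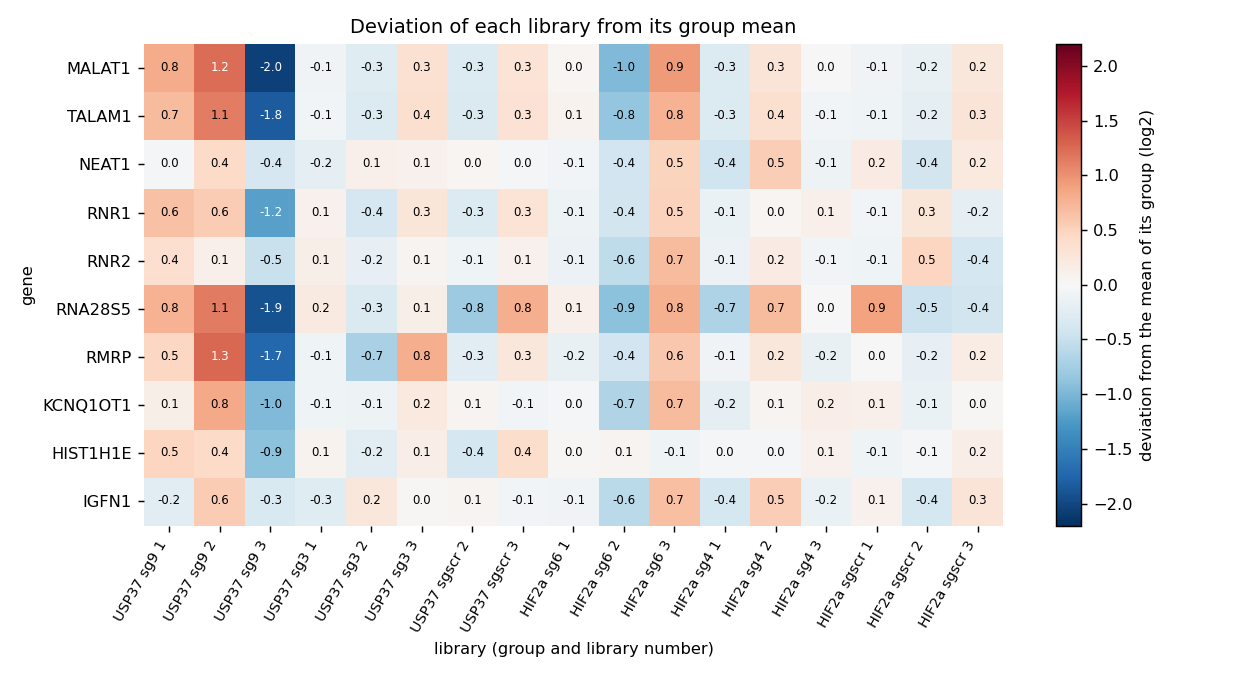
Deviation of each library (columns, by group and library number) from its group's mean for the 4 RNAs and 6 other genes (rows), in log2 units, with blue below and red above the group mean. Library 3 of USP37 sg9 is dark blue for MALAT1, TALAM1, RNR1, RNA28S5 and RMRP, and libraries 2 and 3 of HIF2a sg6 deviate in opposite directions.

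The deviations of the 4 RNAs ran together to different degrees. Over 17 libraries the correlation of deviations was 0.92 between MALAT1 and RNR1, 0.80 between RNR1 and RNR2, 0.69 between MALAT1 and RNR2 and 0.68 between MALAT1 and NEAT1. It was 0.42 between NEAT1 and RNR1 and 0.38 between NEAT1 and RNR2. Points share a library, and libraries of the same number are tied by their equal means. The large values rest in part on library 3 of USP37 sg9 and libraries 2 and 3 of HIF2a sg6. The correlations are descriptions of these 17 libraries.

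The genes most like each RNA differed. By values over the 17 libraries, which form a set for each experiment, MALAT1 was nearest to TALAM1 (r = 0.998), RAPH1 (0.875), KCNQ1OT1 (0.873), RNA28S4 (0.870) and HIST2H2BE (0.870). NEAT1 was nearest to IGFN1 (0.965), C1orf186 (0.964), LOC284454 (0.961), PABPC1L (0.957) and HOXD9 (0.954). RNR1 was nearest to MEF2C (0.963), HIST1H1E (0.958), ZNF771 (0.946), STYX (0.942) and MRPS30 (0.941), and RNR2 to LMBRD2 (0.851), PLCE1 (0.848), AGPAT4 (0.835), RNF216 (0.833) and PPP1R9A (0.831).

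Deviations from group means, which leave out the distance between experiments, gave TALAM1 (0.997), KCNQ1OT1 (0.931) and RMRP (0.930) for MALAT1 and IGFN1 (0.968), PABPC1L (0.929) and GOLGA8B (0.911) for NEAT1. They gave MALAT1 (0.922), ZNF646 (0.913) and TALAM1 (0.911) for RNR1. For RNR2 they gave DNM1 (0.969), FKBP15 (0.964) and PPL (0.955). IGFN1 kept its place beside NEAT1 on both measures, while the r of MRPS30, a mitochondrial ribosomal protein, with RNR1 was 0.226 on deviations.

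RNA28S5 largely followed the split of experiments, and RMRP less clearly. RNA28S5 was 13.75, 14.14 and 11.07 with USP37 sg9 and 13.42, 12.91 and 13.36 with USP37 sg3, against 13.02 and 14.61 in libraries 2 and 3 of USP37 sgscr; it ran over 9.57 to 11.8 in the HIF2a experiment. For RNA28S5 only library 3 of USP37 sg9 fell within the HIF2a range. RMRP was 9.08, 9.87 and 6.89 with USP37 sg9 and 7.31, 6.69 and 8.21 with USP37 sg3, against 6.92 and 7.43 in libraries 2 and 3 of USP37 sgscr; it ran over 5.80 to 6.84 in the HIF2a experiment. For RMRP, library 2 of USP37 sg3 fell within the HIF2a range. USP37 sgscr minus HIF2a sgscr was 3.36 for RNA28S5 (SE 0.65). RNA28S5 was named after its values were seen, so this is a description without a test.

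Guide effects were tested on the whole table with limma, with Benjamini-Hochberg adjustment over 12484 genes. With the USP37 guides, 0 of the 4 RNAs passed for the mean of both guides in limma (1 at an unadjusted p under 0.05), where 44.3% of all tested genes did. RNR1 averaged 16.07 ± 0.33 with USP37 sg3 (SD, n = 3), against 15.07 ± 0.43 in USP37 sgscr (SD, n = 2), and rose by 1.00 (SE 0.36, limma adjusted p = 0.0369); 35.2% of genes passed for that guide. The call for sg3 did not hold in 6 of 13 alternatives (adjusted p from 0.00656 to 0.294), among them those without library 1 (0.95) or 3 (0.86) of USP37 sg3 and without library 2 of USP37 sgscr (0.69), and with a replicate block (0.96, adjusted p = 0.0616). For both guides together RNR1 changed by 0.78 (SE 0.32, interval 0.10 to 1.45, limma adjusted p = 0.057), and by 1.08 without library 3 of USP37 sg9 (limma adjusted p = 0.000284) or by 0.87 without library 2 of USP37 sg3 (limma adjusted p = 0.0428; adjusted p from 2.09e-05 to 0.432 over 17 alternatives).

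With USP37 sg9 0 of the 4 passed in limma (0 also at an unadjusted p under 0.05), where 47.8% of genes did, and values changed with library 3. RNR1 was 0.56 higher with it (SE 0.36, limma adjusted p = 0.216) and 1.16 higher without it (limma adjusted p = 0.000807; adjusted p from 7.5e-05 to 0.701 over 14 alternatives). MALAT1 was -0.31 with it (SE 0.60, interval -1.55 to 0.93, limma adjusted p = 0.694) and 0.71 without it (limma adjusted p = 0.128), a turn of direction. The replicate term had been removed with library 3 present, so values without that library still carry its part in the term. Leaving out library 2 of HIF2a sg6 as well, a choice made after seeing the data, gave 0.71 again at an adjusted p of 0.0169 (0.0169 to 0.988 over 14 alternatives). For both guides MALAT1 changed by 0.13 (SE 0.53, interval -0.98 to 1.25; 0.65 without library 3 of sg9), NEAT1 by 0.08 (SE 0.23, interval -0.40 to 0.56) and RNR2 by 0.01 (SE 0.25, interval -0.50 to 0.53).

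RNR2 rose with the HIF2a guides. It averaged 16.95 ± 0.64 with HIF2a sg6 and 16.65 ± 0.16 with HIF2a sg4, against 16.01 ± 0.44 with HIF2a sgscr (SD, n = 3 each), and the mean change of 0.79 (SE 0.21, interval 0.35 to 1.24) passed at a limma adjusted p of 0.00717. This was 1 of the 4 RNAs, where 30.6% of all tested genes passed and 16.1% of all tested genes passed as higher. It held in 18 of 19 alternatives (adjusted p 3.91e-05 to 0.066), the exception being without library 3 of HIF2a sgscr (0.60, adjusted p = 0.066). With HIF2a sg6 alone the change was 0.94 (SE 0.25, limma adjusted p = 0.00632; 29.0% of genes passed) and held in all 16 alternatives run. With HIF2a sg4 alone it was 0.64 (SE 0.25, limma adjusted p = 0.0615).

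NEAT1 separated the HIF2a guides. It rose by 0.78 with HIF2a sg4 (SE 0.23, interval 0.30 to 1.26, limma adjusted p = 0.0161), where 25.3% of genes passed, against -0.06 with HIF2a sg6 (SE 0.23, interval -0.54 to 0.43, limma adjusted p = 0.882). HIF2a sg6 minus HIF2a sg4 was -0.84 (SE 0.23, limma adjusted p = 0.0255), where 9.22% of genes passed. The sg4 call did not hold without library 2 of HIF2a sg4 (0.51, adjusted p = 0.145) or without library 2 of HIF2a sgscr (0.58, adjusted p = 0.0952), out of 15 alternatives with adjusted p from 0.00251 to 0.145. The difference between guides held in 8 of 16 alternatives (adjusted p 0.00341 to 0.195) and was -0.56 without library 2 of HIF2a sg4. It also did not hold without library 3 of HIF2a sg4 (-0.89) or without library 1 (-0.80) or 2 (-0.63) of HIF2a sg6. EPAS1 itself was 0.81 higher with HIF2a sg6 than with HIF2a sg4 (SE 0.12, limma adjusted p = 0.000154).

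MALAT1 and RNR1 did not pass with the HIF2a guides in the fit of all 17 libraries. MALAT1 changed by -0.20 (SE 0.46, interval -1.17 to 0.76, limma adjusted p = 0.785). RNR1 changed by 0.56 (SE 0.28, interval -0.03 to 1.14, limma adjusted p = 0.145). That fit pooled the spread of all 6 groups, and the SD of RNR1 was 1.04 in USP37 sg9 and 0.13 to 0.46 in the HIF2a groups. With each experiment fitted alone the same RNR1 change passed (limma adjusted p = 0.0181). It was called in 2 of 19 alternatives (adjusted p from 0.00132 to 0.333). Between the USP37 guides, sg9 minus sg3, 0 of the 4 passed in limma (1 at an unadjusted p under 0.05), where 30.8% of genes did. MALAT1 was -0.89 (SE 0.53, limma adjusted p = 0.218) with all libraries, 0.13 without library 3 of USP37 sg9 (limma adjusted p = 0.808) and -1.50 without its library 2 (limma adjusted p = 0.046). NEAT1 stood at 0.52 (SE 0.23, limma adjusted p = 0.0957) and at 0.71 without library 3 of USP37 sg9 (limma adjusted p = 0.0471). The USP37 effect minus the HIF2a effect passed for 0 of the 4 in limma (1 at an unadjusted p under 0.05), where 38.6% of genes did, and was -0.78 for RNR2 (SE 0.33, limma adjusted p = 0.064).

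**Figure D4:**
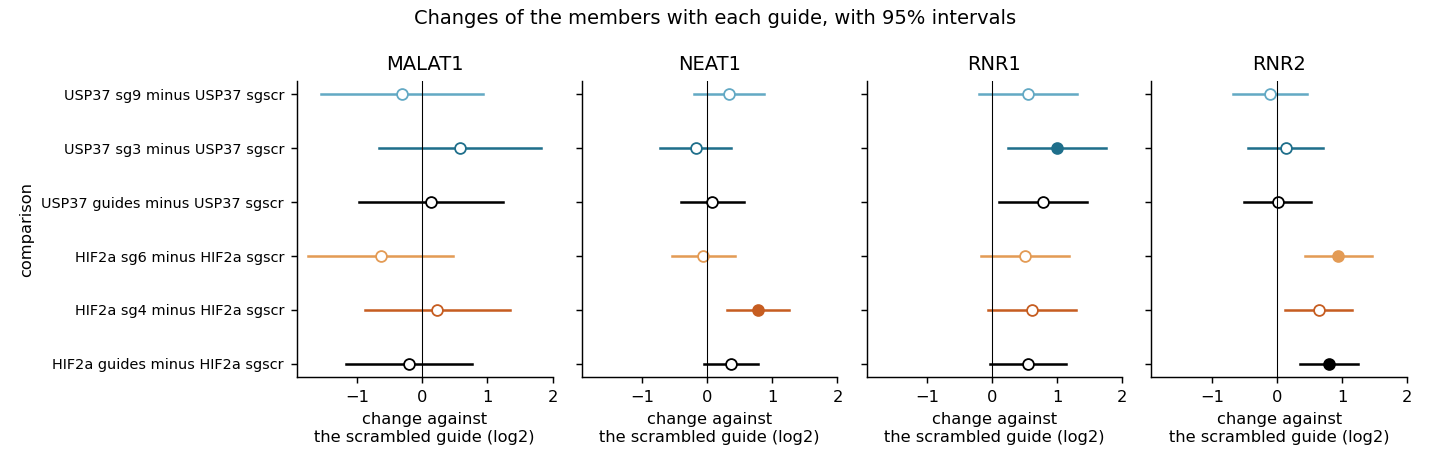
Change of each RNA against the scrambled guide of its own experiment, in log2 units (horizontal axes), for each guide and for the mean of both guides (rows); lines are 95% intervals and filled points passed at a limma adjusted p under 0.05. Filled points are RNR1 with USP37 sg3, NEAT1 with HIF2a sg4, and RNR2 with HIF2a sg6 and with the mean of the HIF2a guides.

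Partner genes are given by lists, each beside the share of all tested genes that passed (USP37 guides 22.4% higher and 21.9% lower; HIF2a guides 16.1% higher and 14.5% lower); the median change of all genes was 0.01 and -0.00. Among paraspeckle proteins, the partners of NEAT1, 4 of 30 rose and 2 fell with the USP37 guides (median 0.07), among the risers RBM14 by 0.62 (limma adjusted p = 1.91e-05) and FAM98A by 0.51 (limma adjusted p = 0.00022). For the HIF2a guides the count was 1 higher and 2 lower (median -0.08): NONO, a core paraspeckle protein, rose by 0.30 (limma adjusted p = 0.00167) and CPSF6, a cleavage factor, fell by 0.22 (limma adjusted p = 0.0203). Taken singly, HIF2a sg6 gave 1 higher and 7 lower (15.2% and 13.8% of all genes), and HIF2a sg4 gave 2 higher and 1 lower (13.2% and 12.1% of all genes). For HIF2a sg6 minus HIF2a sg4 the count was 0 higher and 4 lower (4.86% and 4.36% of all genes), and 0 and 0 with a replicate block. Without library 3 of USP37 sg9 and library 2 of HIF2a sg6 the HIF2a count was 1 and 4.

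Nuclear speckle and splicing proteins, around MALAT1, numbered 8 higher and 6 lower of 30 with the USP37 guides (median 0.07). CLK1 and CLK4, kinases of SR splicing factors, fell by 1.23 (limma adjusted p = 1.51e-07) and 0.60 (limma adjusted p = 0.00494). Under the HIF2a guides 1 rose, TRA2A by 0.24 (limma adjusted p = 0.0191), and 0 fell (median -0.10). HIF2a sg6 alone gave 1 higher and 10 lower, HIF2a sg4 alone 1 higher and 0 lower, and HIF2a sg6 minus HIF2a sg4 0 higher and 5 lower. The sg6 count was 0 and 6 with a replicate block. For the mean of the HIF2a guides without library 3 of USP37 sg9 and library 2 of HIF2a sg6 3 rose and 3 fell.

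Factors of the MALAT1 and NEAT1 3′ ends, such as RNase P subunits, gave 8 higher and 2 lower of 19 with the USP37 guides (median 0.22). Among them the RNase P subunits RPP40 and POP7 rose by 1.02 (limma adjusted p = 8.38e-05) and 0.74 (limma adjusted p = 0.00184). HIF2a guides gave 1 higher and 3 lower (median 0.01), with RPP25 higher by 0.40 (limma adjusted p = 0.0152) and POP1 lower, at -0.35 (limma adjusted p = 0.00149).

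Among other long noncoding RNAs 18 of 36 rose and 2 fell with the USP37 guides (median 0.35). DANCR rose by 1.08 (limma adjusted p = 5.6e-06) and SNHG1, a host of small nucleolar RNAs, by 1.03 (limma adjusted p = 5.21e-05). HIF2a guides gave 1 higher and 8 lower (median -0.11), led by LUCAT1 at -1.64 (limma adjusted p = 1.32e-10) and UCA1 at -0.64 (limma adjusted p = 0.000624). The guides of a pair differed here too: 16 were higher and 2 lower for USP37 sg9 minus USP37 sg3 (16.6% and 14.2% of all genes), and 0 higher and 7 lower for HIF2a sg6 minus HIF2a sg4. A list of short structured RNAs and nuclear rRNAs had 19 rows in the table, of which 3 passed the filter on low values: RMRP and the long nuclear rRNA rows RNA28S5 and RNA45S5. Of these, 0 changed with the mean of either pair of guides in limma (0 also at an unadjusted p under 0.05); without library 3 of USP37 sg9 and library 2 of HIF2a sg6, 1 rose with the USP37 guides.

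The list of genes with detained-intron transcripts gave 1 higher and 16 lower of 29 with the USP37 guides (median -0.36). Such transcripts stay in the nucleus, as MALAT1 and NEAT1 do. The values are per gene and do not separate them from the spliced mRNAs, so a change of the nuclear form was not measured. CLK1, which is on this list too, and WSB1 led the falls, WSB1 with a fall of 1.19 (limma adjusted p = 7.22e-07). With the HIF2a guides 1 rose and 4 fell (median -0.10): WSB1 rose by 0.76 (limma adjusted p = 2.62e-05) and CCNL1, a cyclin of the splicing machinery, fell by 0.43 (limma adjusted p = 0.00145). The HIF2a guides differed, with 0 higher and 11 lower for HIF2a sg6 and 3 higher and 0 lower for HIF2a sg4. HIF2a sg6 minus HIF2a sg4 gave 0 higher and 15 lower (median -0.37), beside 4.86% and 4.36% of all genes. With a replicate block the count was 0 and 13.

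Nuclear genes for mitochondrial RNA synthesis and rRNA maturation gave 30 higher and 1 lower of 46 with the USP37 guides (median 0.35). SLIRP, which stabilises mitochondrial mRNAs, rose by 1.07 (limma adjusted p = 5.27e-07) and NGRN, a factor needed for RNR2, by 0.93 (limma adjusted p = 1.14e-07), while RNR2 itself was 0.01. With the HIF2a guides 5 rose and 3 fell (median 0.01). PPARGC1A, a coactivator of mitochondrial biogenesis, rose by 0.90 (limma adjusted p = 0.000306) and MTERF1, which binds the heavy-strand termination site behind RNR2, fell by 0.52 (limma adjusted p = 0.000909). Without library 3 of USP37 sg9 and library 2 of HIF2a sg6 the count was 5 and 7.

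Neighbours of NEAT1 and MALAT1 in band 11q13.1 gave 9 higher and 1 lower of 18 with the USP37 guides (median 0.26), with SSSCA1 higher by 0.94 (limma adjusted p = 4.54e-06) and LTBP3, a TGF-beta binding protein, lower at -0.83 (limma adjusted p = 2.09e-06). With the HIF2a guides 2 rose and 2 fell (median 0.06), PCNX3 at 0.40 (limma adjusted p = 0.00586) and FAM89B at -0.39 (limma adjusted p = 0.00483).

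The regulators reported for NEAT1 can be read beside it. HIF targets fell in 21 of 23 with 0 higher with the USP37 guides (median -0.79) and fell in 15 with 2 higher with the HIF2a guides (median -1.50). ENPP3 fell by 3.11 (limma adjusted p = 9.21e-10) with the USP37 guides and fell by 3.66 (limma adjusted p = 7.4e-13) with the HIF2a guides. NDRG1 fell by 2.51 (limma adjusted p = 4.41e-09) with the USP37 guides, and EGLN3, a HIF prolyl hydroxylase, fell by 3.72 (limma adjusted p = 2.21e-13) with the HIF2a guides. NEAT1 itself was 0.08 with the USP37 guides and 0.36 with the HIF2a guides (SE 0.20, interval -0.06 to 0.78, limma adjusted p = 0.188).

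For p53 targets 4 of 23 rose and 6 fell with the USP37 guides (median -0.06), AEN at 0.97 (limma adjusted p = 7.05e-06) and TIGAR at 0.78 (limma adjusted p = 1.55e-05). HIF2a guides gave 2 higher and 14 lower (median -0.42), CDKN1A at -1.79 (limma adjusted p = 1.05e-13) and GDF15 at 1.77 (limma adjusted p = 3.57e-09).

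Between the controls, USP37 sgscr against HIF2a sgscr, 2 paraspeckle proteins were higher and 17 lower of 30 (median -0.42), beside 20.1% higher and 20.4% lower of all genes. Speckle and splicing proteins counted 3 higher and 13 lower of 30 (median -0.34), and genes with detained-intron transcripts 1 higher and 17 lower of 29 (median -0.56). The 11q13.1 neighbours counted 0 higher and 10 lower of 18 (median -0.43). Replication-dependent histones counted 5 higher and 0 lower of the 7 that passed the filter, out of 19 (median 0.75); 0 of the 7 changed with the mean of either pair of guides in limma (1 at an unadjusted p under 0.05 for each pair). Without library 3 of USP37 sg9 and library 2 of HIF2a sg6, 1 rose with the USP37 guides and 1 fell with the HIF2a guides.

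**Figure D5:**
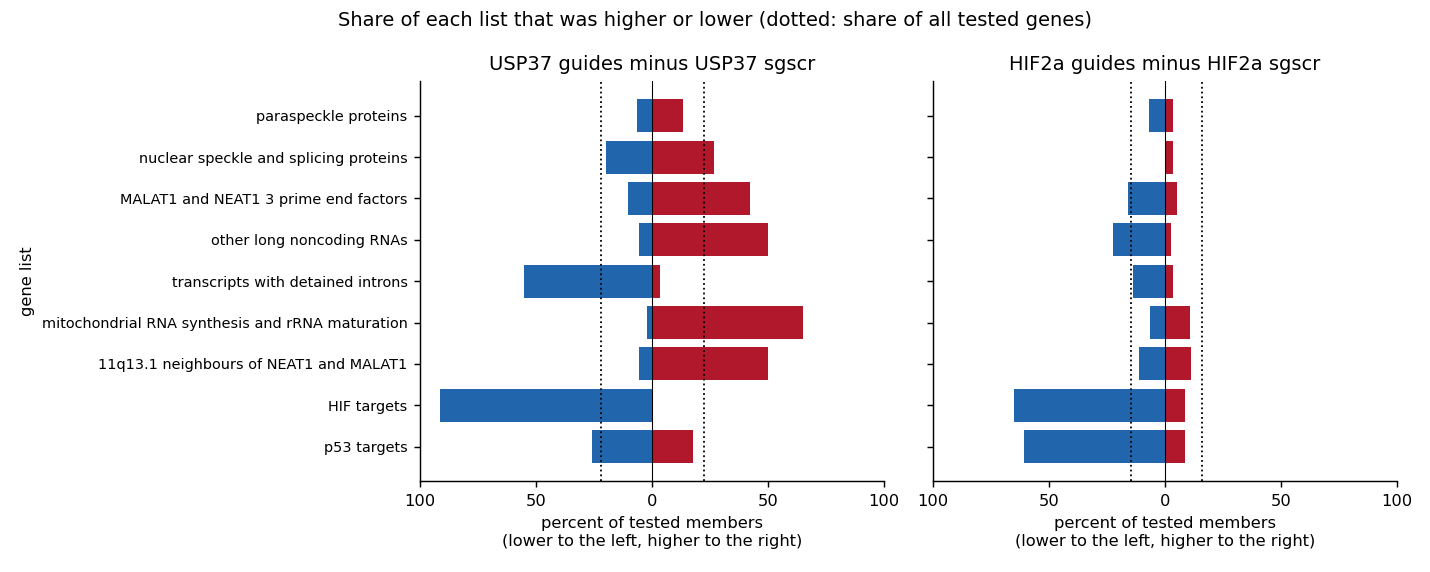
Percent of the tested members of each gene list that were higher (right, red) or lower (left, blue) at a limma adjusted p under 0.05 with the USP37 guides (left panel) and the HIF2a guides (right panel); dotted lines are the shares of all tested genes. With the USP37 guides, bars reach past the line on the right for mitochondrial RNA synthesis (30 of 46), other long noncoding RNAs (18 of 36), 11q13.1 neighbours (9 of 18) and 3′ end factors (8 of 19). On the left they do so for HIF targets (21 of 23) and detained introns (16 of 29). Bars for speckle proteins on the right (8 of 30) and p53 targets on the left (6 of 23) end close to the line. With the HIF2a guides, bars reach past the line on the left for HIF targets (15 of 23), p53 targets (14 of 23) and other long noncoding RNAs (8 of 36), and 3′ end factors (3 of 19) end close to it. No set test was run, and the lists were chosen with earlier results of these data known.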

How the data were processed

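Polyadenylated RNA of 17 libraries was prepared with the TruSeq RNA v2 kit, per the labels' protocols. The authors deposited variance-stabilised, batch-corrected values on a log2-like scale. DESeq2, Salmon, STAR 2.5.2b and cutadapt appear without roles in the submitters' processing notes, beside the build hg19; the batch variable is not given in the sources used here. For each gene the means over libraries of each replicate number were equal within 6.39e-14, so a replicate term had already been removed, and p-values tend to be too small. Depth is unknown and limits precision.

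From these values, limma 3.58.1 in R 4.3.3 fitted 6 group means (empirical Bayes, mean-variance trend, 11 residual degrees of freedom) for 12484 genes whose mean exceeded the floor of 5.14 (the 1st percentile of gene means) by 1 log2 unit or more. P-values were adjusted by Benjamini-Hochberg for each contrast over these genes and called under 0.05; intervals are 95%. On simulated data with 12484 genes for the HIF2a guides, 98% of 100 genes changed by 1 and 66% of 100 changed by 0.5 were called. The changed genes were drawn at random, each with its own within-group SD and with noise independent between genes. The 4 RNAs had SDs of 0.375 to 0.896 against a median of 0.146 over tested genes, so these rates do not apply to them. Members, lists and the naming rule were chosen with earlier results of these data known. The rule named the members, EPAS1 and USP37, the called list members with the largest changes (at most 4 a list; the first 2 are printed), and the genes with the highest correlations, 5 by values and 3 by deviations; companions of library 3 of USP37 sg9 were named after their values were seen. RNR1 and RNR2 matched a RefSeq gene table by symbol. Since a replicate term had been removed, the values cannot show whether replicate numbers pair the libraries, and the labels do not say what the numbers mark.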

Additional observations from a re-analysis of the deposited data

Results flagged for a closer look

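The USP37 effect minus the HIF2a effect differed from 0 at a limma adjusted p under 0.05 for the genes below, and for none of MALAT1, NEAT1, RNR1 and RNR2; 38.6% of all tested genes passed. Values are differences of log2 changes. The targets gave 1.26 for EPAS1 and -0.56 for USP37.

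Among nuclear RNA partners the difference was -0.998 for CLK1, -1.95 for WSB1, -0.44 for NONO, 0.59 for RBM14, 0.52 for FAM98A, 0.84 for RPP40, 0.85 for POP7 and 0.33 for POP1. Other long noncoding RNAs gave 1.00 for DANCR, 1.01 for SNHG1, 0.99 for LUCAT1 and 1.39 for UCA1. Mitochondrial genes gave 0.93 for SLIRP, 1.10 for NGRN, -1.58 for PPARGC1A and 0.61 for MTERF1. The 11q13.1 neighbours gave 0.90 for SSSCA1, 0.91 for FAM89B and -0.50 for LTBP3.

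HIF targets gave 1.96 for EGLN3 and 0.77 for NDRG1, and p53 targets 1.89 for CDKN1A, -2.45 for GDF15, 1.38 for AEN and 0.66 for TIGAR. Marker genes gave 1.08 for AXL, -1.21 for CDH6, -1.12 for NNMT, 0.56 for CD68, -1.28 for LCP1, -0.63 for IGF2BP3 and -0.53 for PRAME.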

How the results depend on the processing

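Of the tested results for the 4 RNAs under other settings than leaving out 1 library, 292 kept their call and direction, 21 gained a call, 7 lost one and 12 changed sign; with 1 library left out 232 kept theirs, 9 gained a call, 10 lost one and 21 changed sign. The causes were not tested. Settings that left out several libraries had 8 and 9 residual degrees of freedom. Every setting used values from which a replicate term had been removed with all 17 libraries present.

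With no filter, RNR1 was 1.00 with USP37 sg3 and NEAT1 -0.84 for HIF2a sg6 minus sg4, and neither passed. The replicate block, which has 9 residual degrees of freedom, ended the RNR1 call with USP37 sg3 (0.96) and changed no other call of the 4 RNAs; RNR2 for the USP37 guides changed sign (-0.0013). With each experiment fitted alone RNR1 passed for the HIF2a guides (0.56), the USP37 guides (0.78) and HIF2a sg4 (0.61), NEAT1 passed for USP37 sg9 (0.34) and sg9 minus sg3 (0.52), and NEAT1 did not for sg6 minus sg4 (-0.84); this fit cannot give the USP37 effect minus the HIF2a effect or the contrast of the controls. With array weights RNR1 passed for the USP37 guides (0.78) and HIF2a sg4 (0.69), RNR2 for HIF2a sg4 (0.75) and for the USP37 minus HIF2a effect (-0.93), and NEAT1 did not for sg6 minus sg4 (-0.84). Array weights called 5150 genes for HIF2a sg4 (3159 in the fit as reported) and 573 for sg6 minus sg4 (1151). Without the mean-variance trend RNR1 with USP37 sg3 (1.00) did not pass. Quantile normalization passed RNR2 for HIF2a sg4 (0.88) and for the USP37 minus HIF2a effect (-1.03), and turned its sign for the USP37 guides (-0.26), USP37 sg3 (-0.10) and sg6 minus sg4 (-0.23), none of them called. Without HIF2a sg6 libraries 2 and 3 and HIF2a sgscr library 2, RNR2 passed for the same 2 results (0.88 and -0.95), and 2021 genes were called for HIF2a sg6 (3624) and 413 for sg6 minus sg4 (1151).

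Without USP37 sg9 library 3 and HIF2a sg6 library 2, chosen after seeing the data, MALAT1 reversed for USP37 sg9 (0.71) and passed for the USP37 guides (0.65). RNR1 passed for the USP37 guides (1.08), USP37 sg9 (1.16), the HIF2a guides (0.66) and HIF2a sg6 (0.70), NEAT1 for the HIF2a guides (0.47) and sg9 minus sg3 (0.71) but not for sg6 minus sg4 (-0.63), and RNR2 for the USP37 minus HIF2a effect (-0.80). Uncalled values that changed sign were MALAT1 for the HIF2a guides (0.040) and sg9 minus sg3 (0.13), NEAT1 for HIF2a sg6 (0.15), RNR1 for sg6 minus sg4 (0.095) and sg9 minus sg3 (0.16), and RNR2 for USP37 sg9 (0.13) and sg9 minus sg3 (0.0018).

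With 1 library left out, ranges that crossed the threshold were these. NEAT1 ran over 0.51 to 1.00 for HIF2a sg4, -1.09 to -0.56 for sg6 minus sg4 and 0.31 to 0.71 for sg9 minus sg3. RNR1 ran over 0.47 to 1.08 for the USP37 guides, 0.69 to 1.30 for USP37 sg3 and 0.23 to 1.16 for USP37 sg9. RNR2 ran over 0.60 to 1.03 for the HIF2a guides, 0.45 to 0.88 for HIF2a sg4 and -1.02 to -0.59 for the USP37 minus HIF2a effect, and MALAT1 over -1.50 to 0.13 for sg9 minus sg3. Ranges that crossed 0 without a call were these. MALAT1 ran over -0.44 to 0.040 for the HIF2a guides, -0.17 to 0.65 for the USP37 guides and -0.92 to 0.71 for USP37 sg9. NEAT1 ran over -0.30 to 0.15 for HIF2a sg6 and -0.023 to 0.17 for the USP37 guides. RNR1 ran over -0.36 to 0.095 for sg6 minus sg4, -0.77 to 0.16 for sg9 minus sg3 and -0.086 to 0.53 for the USP37 minus HIF2a effect. RNR2 ran over -0.047 to 0.58 for sg6 minus sg4, -0.088 to 0.13 for the USP37 guides, -0.42 to 0.0018 for sg9 minus sg3 and -0.29 to 0.13 for USP37 sg9. The number of genes called ran over 500 to 1593 for sg6 minus sg4 (1151), 3347 to 4704 for the controls and 3683 to 5580 for the USP37 guides. Where a group kept 1 library, its spread was taken from the other groups.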
